A study of Mus musculus with 5 samples.

Results

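Small leucine-rich proteoglycans are secreted matrix proteins, and 8 genes of this family (Dcn, Bgn, Aspn, Lum, Fmod, Prelp, Omd and Ogn) were followed across mouse neural progenitor cells and fibroblasts. The members were the non-control probes whose gene name in the array files equalled one of these symbols. Each gene had 1 such probe, so the set held 8 of the 55681 non-control probes on the array. RNA of each sample was hybridised to 1 single-colour array. The samples were 2 arrays of chemically induced neural progenitor cells (ciNPC) at passage 13 (p13), 1 array of ciNPC at passage 5 (p5), 1 array of brain-derived neural progenitors (NPC, the control) and 1 array of mouse embryonic fibroblasts (MEF, primary fibroblasts grown from embryos). The series title names chemical cocktails and hypoxia as the means by which such cells were made. The labels used here name no strain, genotype, compound or donor for any group, and they leave unstated whether separate cultures gave the p13 arrays. The p-values therefore reflect only how these samples varied among themselves, which may be technical variation.

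The core of these proteins is a curved stack of leucine-rich repeats that binds collagen fibrils and regulates their thickness and spacing. Class I members (Dcn, Bgn, Aspn) have cores that carry chondroitin or dermatan sulphate chains, except asporin, which lacks the attachment site for them. Class II members (Lum, Fmod, Prelp, Omd) carry keratan sulphate or tyrosine sulphate, and Ogn belongs to class III. Several of the cores also hold growth factors such as TGF-beta in the matrix. The family is abundant in skin, tendon, bone and cornea. In the brain it is found mainly in the meninges and around vessels, while the matrix between neural cells is built largely from hyaluronan and the lectican proteoglycans.

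Each value below rests on the hybridisation of a single 60-base probe. The probe for Bgn was placed at chrX:70738554-70738613 on the plus strand of mm9, starting at base 927 of its transcript. It is shown because Bgn was the member detected on all 5 arrays with the smallest spread between the 4 cell populations, and because no stretch of 16 bases in it recurred in another probe.
Bgn probe: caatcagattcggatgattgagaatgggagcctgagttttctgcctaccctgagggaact
The longest stretch that any 2 member probes shared was 7 bases. The Prelp probe was the only member probe that shared a stretch of 16 bases with a probe of another gene name. It shared one with 1 such probe, whose gene was not looked up.

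Aspn, Omd and Ogn lie next to each other on chromosome 13 but had different patterns over the cells, so the 120 bases before the start of each are shown with those of Bgn on chromosome X. They were taken from RefSeq on GRCm38.p6, where 6 of the 8 members had an entry. All 4 windows lie on the plus strand, at chr13:49544323-49544442 for Aspn, chr13:49582342-49582461 for Omd, chr13:49607895-49608014 for Ogn and chrX:73483481-73483600 for Bgn.
Aspn promoter: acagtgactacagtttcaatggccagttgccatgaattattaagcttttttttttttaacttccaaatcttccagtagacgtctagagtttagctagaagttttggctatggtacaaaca
Omd promoter: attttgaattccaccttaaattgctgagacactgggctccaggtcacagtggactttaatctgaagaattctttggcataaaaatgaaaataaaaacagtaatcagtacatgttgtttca
Ogn promoter: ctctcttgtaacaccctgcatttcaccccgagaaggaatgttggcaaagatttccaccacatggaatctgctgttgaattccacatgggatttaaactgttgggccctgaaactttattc
Bgn promoter: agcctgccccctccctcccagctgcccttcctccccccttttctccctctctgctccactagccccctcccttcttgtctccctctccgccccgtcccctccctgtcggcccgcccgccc
G and C made up 35% of the Aspn window, 34.2% of the Omd window and 44.2% of the Ogn window, against 71.7% of the Bgn window. The median over the windows of all 32851 promoters was 54.2%. The TATA box (TATAAA), the CCAAT box and the AP-1 site (TGACTCA) were searched on both strands, and none of the 4 windows held any of them, so no motifs overlapped. Among all promoter windows of the same length, 6.34% held the TATA box, 21.3% the CCAAT box and 2.30% the AP-1 site. No capitals are used, as no searched motif was present.

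Levels are log2 processed intensities relative to the 75th percentile of each array, so that 0 is a signal equal to that percentile. They describe 1 probe across arrays and do not rank the genes against each other. A probe was compared when some group had it marked well above background by the scanner software on all its arrays, which left 35587 probes and 7 of the 8 members. A probe was called when its Benjamini-Hochberg adjusted p in limma was under 0.05 and the difference was at least 2-fold. Folds of single genes printed as at least some value are bounds for a dim signal. The adjusted p beside a bound comes from the fit on the values as read, and the bound itself was not tested. The share of spots marked well above background was 47.9% to 57.6%. On 1 array, ciNPC p13 replicate 2, the spike-in controls had a slope of 0.803, outside the accepted range, against 0.915 to 0.987 on the others. All ciNPC arrays lay on slide 2 and were scanned there, and the NPC and MEF arrays lay on slide 1, so slide and cell type cannot be told apart in ciNPC against MEF or NPC. In these bulk samples, fewer cells of a type and less RNA per cell cannot be told apart.

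Most members were lower in ciNPC than in MEF, and several were higher in ciNPC than in NPC. Of the 7 members tested, 6 were called lower in ciNPC than in MEF (Dcn, Bgn, Aspn, Lum, Fmod and Ogn), none was called higher and Omd did not pass. Over all probes, 11.3% were called lower and 12.5% higher in this comparison. The median log2 difference of the 7 members was -2.68, against -0.09 over all probes tested. Against NPC, 4 of the 7 were called higher in ciNPC (Dcn, Bgn, Lum and Ogn), where 2.73% of all probes were, and none was called lower, where 0.0534% of all probes were. The median difference from NPC was 2.82 over the 7 members and -0.12 over all probes tested. With dim values raised to a floor, the lowest signal marked well above background on the same array, the member medians were -2.68 against MEF and 2.09 against NPC. Without p13 replicate 2, 6 members were again called lower than in MEF and Omd was called higher, and 6 were called higher than in NPC, Aspn and Omd being the added ones. More of all probes were called in that setting too. Against MEF, 5825 were lower and 5181 higher, up from 4033 and 4452. Against NPC, 1586 were higher, up from 972. Both comparisons share the ciNPC arrays.

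**Figure D1:**
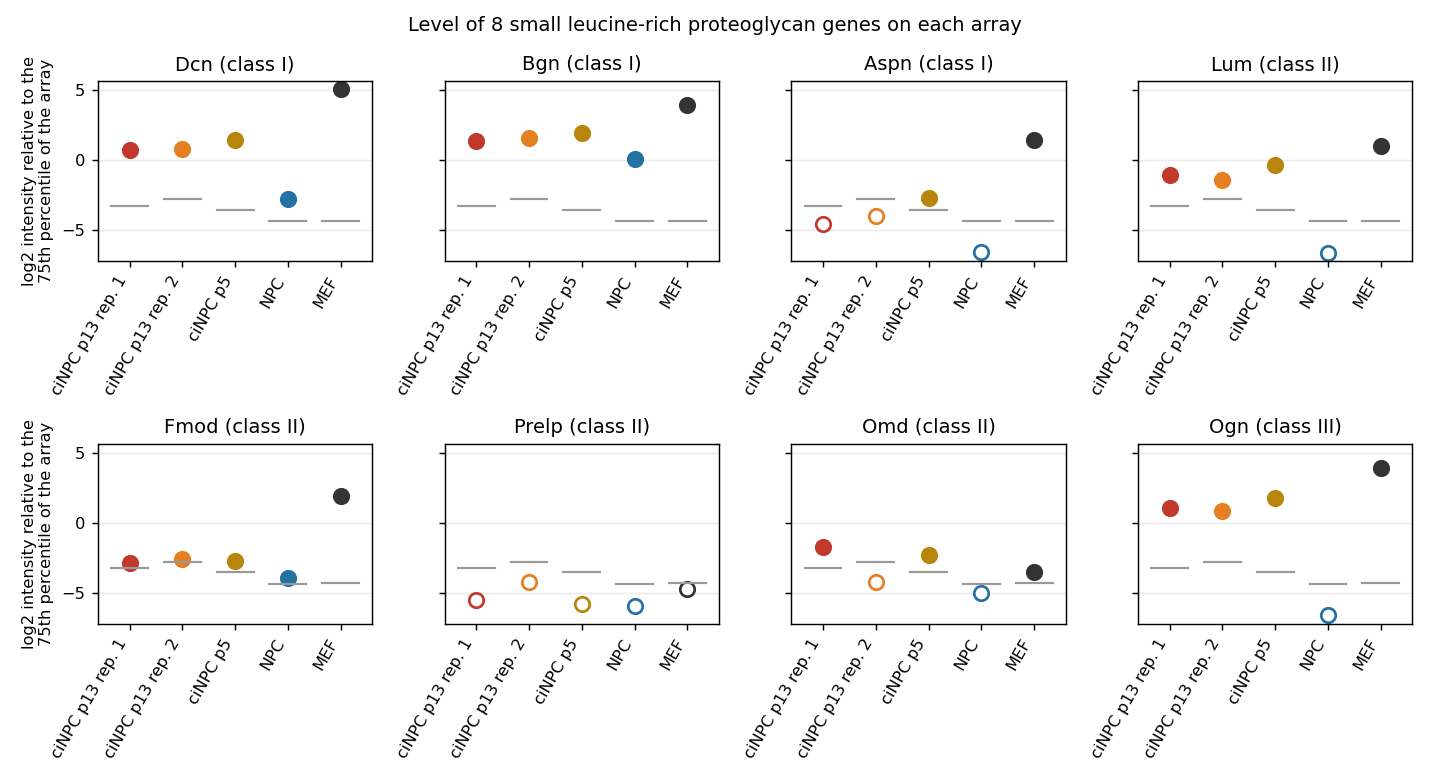
Level of each gene on each array, as log2 intensity relative to the 75th percentile of the array (vertical axis, shared by all panels), with 1 point per array. Filled points were well above background, open points were not, and grey ticks mark the lowest well-above-background signal of that array. Dcn, Bgn, Lum, Fmod and Ogn have all 3 ciNPC arrays, each well above background, between NPC and MEF, while Prelp has only open points.

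Decorin (Dcn) binds type I collagen and TGF-beta and limits the lateral growth of fibrils. Its probe, at chr10:96980233-96980292, had log2 levels of 0.71 and 0.77 in ciNPC p13, 1.42 in ciNPC p5, -2.73 in NPC and 5.05 in MEF. All 3 ciNPC arrays lay well apart from both other cell types, and the p13 arrays differed from each other by 1.04-fold. In percent of the MEF level, the p13 arrays held 4.93% and 5.14%, p5 held 8.08% and NPC held 0.457%. Dcn was called lower in ciNPC than in MEF by a log2 difference of -4.08 (SE 0.29, adjusted p = 0.000141), which is 17-fold. It was called higher in ciNPC than in NPC by 3.69 (SE 0.29, adjusted p = 0.000796), which is 12.9-fold.

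Biglycan (Bgn) binds collagen and signals through the innate receptors Tlr2 and Tlr4 when it is released from the matrix. Its log2 levels were 1.36 and 1.54 in ciNPC p13, 1.97 in ciNPC p5, 0.07 in NPC and 3.95 in MEF. The NPC level of Bgn was thus 6.78% of the MEF level, and the ciNPC levels were 16.6%, 18.8% and 25.3% of it. Biglycan RNA was called lower in ciNPC than in MEF (-2.33, SE 0.24, adjusted p = 0.000578, 5.01-fold) and higher than in NPC (1.56, SE 0.24, adjusted p = 0.0183, 2.94-fold). The call against NPC was lost with quantile normalisation (adjusted p = 0.0848), with the authors' deposited values (adjusted p = 0.0817) and without the intensity trend (adjusted p = 0.265).

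Asporin (Aspn), named for a run of aspartates, competes with decorin for collagen and binds TGF-beta. The probe at chr13:49662479-49662538 had levels of -4.51 and -4.0 in ciNPC p13, -2.71 in ciNPC p5, -6.56 in NPC and 1.46 in MEF. Only the p5 and MEF values were well above background. Aspn was called lower in ciNPC than in MEF by -5.19 (SE 0.82, adjusted p = 0.00327), a difference of -4.37 with the 2 dim p13 values at the floor. Against NPC, where 1 of 3 ciNPC arrays measured the probe, it was 1.53-fold higher with ciNPC as read and NPC at the floor. That difference was not called (adjusted p = 0.195 with all values as read). It was called against NPC without p13 replicate 1 (3.21, adjusted p = 0.0210), without p13 replicate 2 (2.95, adjusted p = 0.0130) and with p5 and p13 as separate groups (3.08, adjusted p = 0.00819).

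Lumican (Lum) is the class II member best known for the ordered, transparent collagen of the cornea. Levels at chr10:97035210-97035269 were -1.08 and -1.42 in ciNPC p13, -0.34 in ciNPC p5, -6.59 in NPC and 1.04 in MEF. The probe was not well above background in NPC and was measured on the 4 other arrays, where every ciNPC value was below MEF. The ciNPC arrays held 23.0%, 18.2% and 38.3% of the MEF level. Lum was called lower in ciNPC than in MEF by -1.99 (SE 0.48, adjusted p = 0.0175, 3.97-fold), and this call was lost with quantile normalisation (adjusted p = 0.0640), with the deposited values (adjusted p = 0.0684) and without the intensity trend (adjusted p = 0.0812). Against NPC it was called higher with the NPC value as read (5.64, adjusted p = 0.00104). With NPC at the floor it was at least 10.6-fold higher.

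Fibromodulin (Fmod) binds collagen next to lumican and guides the crosslinking of fibrils in tendon. At chr1:135943998-135944057 its levels were -2.84 and -2.59 in ciNPC p13, -2.72 in ciNPC p5, -3.89 in NPC and 1.89 in MEF. All 5 values were well above background, and the 3 ciNPC values stood within 1.18-fold of each other, the narrowest range among the 7 members tested. Fmod was called lower in ciNPC than in MEF by -4.61 (SE 0.37, adjusted p = 0.000223, 24.4-fold). Its difference from NPC was 1.18 (95% interval 0.29 to 2.07, adjusted p = 0.236) and was not called, although the 3 ciNPC arrays were above the NPC array.

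Osteomodulin (Omd), a bone matrix protein also called osteoadherin, did not have the pattern of the other members. Its probe at chr13:49687847-49687906 had levels of -1.70 and -4.19 in ciNPC p13, -2.29 in ciNPC p5, -4.99 in NPC and -3.50 in MEF. Replicate 2 of p13 and NPC were not well above background, and p13 replicate 1 was at least 2.14-fold above replicate 2. In percent of MEF, p13 replicate 1 held 350.1% and p5 held 232%, while p13 replicate 2 held at most 164%. Both measured ciNPC arrays were thus above MEF, and the third cannot be placed. The difference of ciNPC from MEF was 0.78 (95% interval -1.64 to 3.20, adjusted p = 0.611) with the dim value as read, and 1.24 with it at the floor. Against NPC, Omd was 3.09-fold higher with ciNPC as read and NPC at the floor, measured on 2 of 3 ciNPC arrays. It was not called (adjusted p = 0.400 with all values as read). Without p13 replicate 2, the array with the low spike-in slope, Omd was called higher than in MEF (1.51, adjusted p = 0.0314) and higher than in NPC (3.0, adjusted p = 0.00207).

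Prelp, a protein of basement membranes and cartilage with a heparin-binding end, was not well above background on any array. Its levels at chr1:135806855-135806914 on the minus strand were -5.45 and -4.22 in ciNPC p13, -5.77 in ciNPC p5, -5.91 in NPC and -4.69 in MEF. It was therefore not tested, and its values have no order. The array files link this probe to a cDNA clone and the other 7 member probes to curated transcripts.

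Osteoglycin (Ogn, also mimecan) takes part in the assembly of collagen fibrils in bone and other connective tissue. At chr13:49719549-49719608 its levels were 1.03 and 0.86 in ciNPC p13, 1.80 in ciNPC p5, -6.57 in NPC and 3.91 in MEF. The probe was not well above background in NPC and was measured on the other 4 arrays. The ciNPC arrays held 13.6%, 12.1% and 23.2% of the MEF level, and Ogn was called lower in ciNPC than in MEF by -2.68 (SE 0.37, adjusted p = 0.00181, 6.40-fold). Against NPC it was called higher with the NPC value as read (7.80, adjusted p = 6.37e-05). With NPC at the floor it was at least 47.8-fold higher. The Ogn call was the only member call against NPC that remained when the fit had no intensity trend. The corresponding adjusted p was then 0.0808 for Dcn and 0.0653 for Lum.

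**Figure D2:**
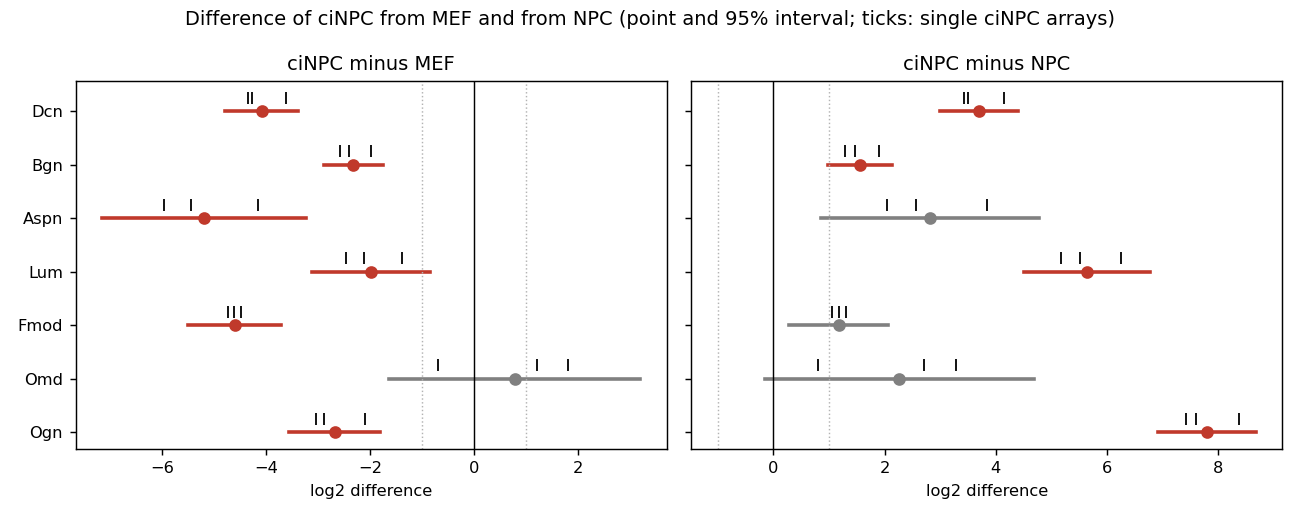
Log2 difference of ciNPC from MEF (left) and from NPC (right) for the 7 genes tested. Points are estimates over 3 ciNPC arrays against 1 array, bars are 95% intervals and short ticks are the single ciNPC arrays. Red marks called genes, grey genes that did not pass, and dotted lines mark 2-fold. Omd is the gene whose interval spans 0 in both panels.

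Between NPC and MEF, with 1 array each, no test was run, and members were described by a difference of at least 4-fold with dim values at the floor. By that measure 6 of the 7 members were lower in NPC, where 7.38% of all probes were, and none was higher, where 6.79% were. Dcn was 219-fold, Fmod 55.3-fold and Bgn 14.7-fold lower in NPC than in MEF, and with normexp background correction these folds were 112, 18.3 and 13.5. The NPC value was under background for the rest, which gave at least 306-fold for Ogn, at least 56.0-fold for Aspn and at least 42.0-fold for Lum. With normexp the bounds were 99.9-fold, 19.1-fold and 14.6-fold in the same order. Omd was at least 1.80-fold lower in NPC and did not reach 4-fold. The plot of percent of MEF sets these values beside those of ciNPC. Averaged on the log scale, ciNPC had 25.2% of the MEF level of Lum, 19.9% of Bgn, 15.6% of Ogn, 5.90% of Dcn and 4.09% of Fmod. For Aspn, dim on both p13 arrays, it was at most 4.84%.

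**Figure D3:**
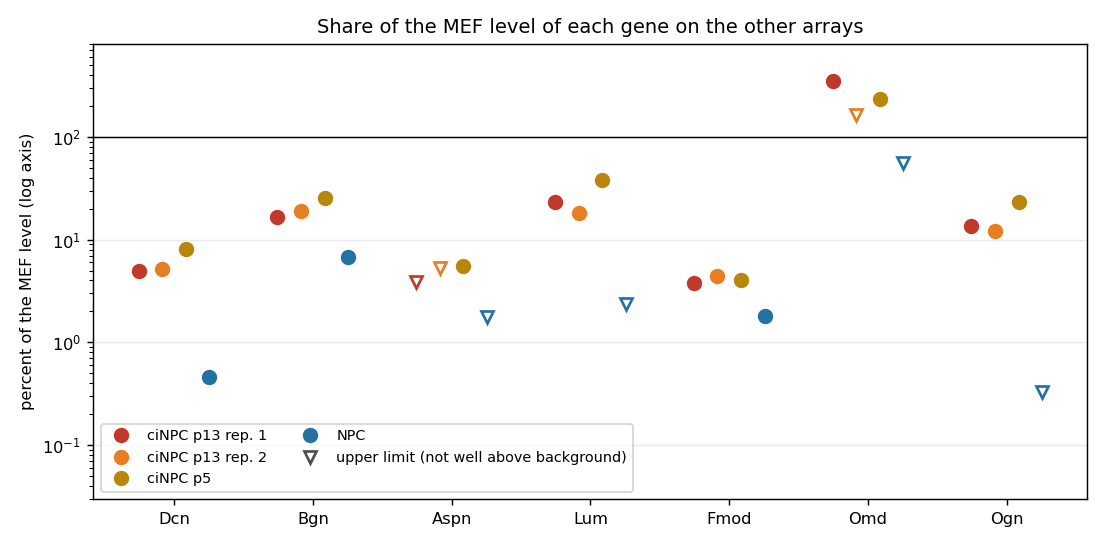
Level of each gene on the ciNPC and NPC arrays as a percent of its level on the MEF array (log axis, with a black line at the MEF level). Open triangles were not well above background and stand at their upper limit, the floor of the array. Dcn, Aspn and Fmod lie under 10% on all ciNPC arrays, Bgn, Lum and Ogn lie between 12.1% and 38.3%, and Omd is at 232% and 350.1% on the 2 ciNPC arrays that measured it.

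Passage 13 was set against passage 5 to see whether levels changed during culture. No member was called in limma, where 0.2% of all probes were called lower and 0.632% higher in p13. By adjusted p at any fold, 3 of the 7 were lower in p13 (Dcn, Bgn and Ogn), where 3.24% of all probes were lower and 2.94% higher. An unadjusted p under 0.05 was found for 4 of the 7, these genes and Lum, and for 18.7% of all probes. The p13 minus p5 difference was -0.68 for Dcn (SE 0.14, adjusted p = 0.00239), -0.52 for Bgn (SE 0.12, adjusted p = 0.00800) and -0.86 for Ogn (SE 0.18, adjusted p = 0.00329). Both p13 values lay below the p5 value for each of these genes, and for Lum and Aspn as well. The Aspn values were under background on both p13 arrays. The share of all probes with both p13 values below p5 was not counted. Lum differed by -0.91 (adjusted p = 0.200) and Omd by -0.66 (adjusted p = 0.802). The Omd estimate was 0.59 without p13 replicate 2 and 0.04 with dim values at the floor. For Aspn, under background in p13, p5 was brighter by at least 1.24-fold (adjusted p = 0.338). Fmod differed by 0.00 (95% interval -0.95 to 0.96), and its estimate turned to -0.59 with quantile normalisation. The median over all probes was 0.12 in the opposite direction to the members' median of -0.68. This comparison rests on 1 p5 array and on the p13 pair, which gave 1 residual degree of freedom for each probe. Its standard errors therefore drew largely on the spread of other probes of similar intensity. With quantile normalisation the adjusted p became 0.134 for Dcn, 0.218 for Bgn and 0.135 for Ogn, and without the intensity trend it was 0.680 for each.

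The populations were ordered by the level of each member tested, and the share of all probes with each order was not counted. The step between p5 and p13 rests on 1 p5 array, and no member was called for it. For Dcn and Bgn the order was MEF, then ciNPC p5, ciNPC p13 and NPC. For Lum and Ogn it was MEF, p5 and p13, with NPC under background, and for Aspn it was MEF and p5, with both other populations under background. Fmod had the order MEF, p13, p5 and NPC, but p13 and p5 overlapped and are not separable. For Omd, p13 replicate 1 lay above p5 and p5 above MEF, while p13 replicate 2 had only an upper limit, so p13 has no settled place. With dim values at the floor, quantile normalisation kept the order of 5 of the 7 genes and changed that of Fmod and Omd.

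Members were also compared by the shape of their 5-array profile, as the root mean square difference of log2 values after centring, with dim values at the floor, over 15031 named genes. The genes nearest to Dcn were Ctsk, which encodes the collagen-degrading protease cathepsin K (0.073), the BMP antagonist Grem1 (0.075) and Tep1 (0.11). Nearest to Bgn were Setbp1 (0.054), Casp8 (0.072) and Rab7b (0.087). Ogn was nearest to the collagen receptor Ddr2 (0.13), followed by Ccl7 and Crabp1. The genes nearest to Aspn were Vill (0.14), the elastin gene Eln (0.16) and Gcnt2 (0.18). Fmod was the member closest to Aspn (0.18), and Aspn was the nearest of all genes to Fmod, ahead of Adra2a and Slc7a7. Aspn stood at the floor on both p13 arrays and in NPC, and only its p5 and MEF values were measured. All distances from Aspn therefore rest largely on the floors of those arrays. Lum had Eva1a, Ereg and Sertad4 nearest, at 0.18 to 0.19. Omd was nearest to clusterin (Clu, 0.23), then to Dpys and Fbxo48. Lum and Ogn stood at the floor in NPC, and Omd did so in NPC and p13 replicate 2. The distances describe 5 points, of which 3 are ciNPC arrays and the others the lone NPC and MEF arrays.

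Most of the members lie in 3 gene clusters, which hold genes with other patterns as well. In the reference order of protein-coding genes, Dcn, Lum, Kera and Epyc are neighbours on chromosome 10, and Ecm2, Aspn, Omd and Ogn on chromosome 13. Optc, Prelp and Fmod are neighbours on chromosome 1, and Bgn stands alone on X. The probes of Dcn and Lum were 55.0 kb apart on mm9, those of Aspn and Ogn 57.1 kb with Omd between them, and those of Prelp and Fmod 137 kb. Keratocan (Kera) and epiphycan (Epyc), proteoglycans of cornea and cartilage, were not well above background on any array. Ecm2, which has leucine-rich repeats and is the neighbour of Aspn, had levels of -1.54 and -1.40 in ciNPC p13, -0.79 in ciNPC p5, -0.72 in NPC and -3.34 in MEF. It was called higher in ciNPC than in MEF (2.09, SE 0.40, adjusted p = 0.00721), the opposite direction to Aspn and Ogn. Opticin (Optc), the neighbour of Prelp, had -4.40 and -3.94 in ciNPC p13, -3.35 in ciNPC p5, -5.19 in NPC and -0.58 in MEF. It was well above background only in p5 and MEF and was called lower in ciNPC than in MEF (-3.32, SE 0.71, adjusted p = 0.0113).

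**Figure D4:**
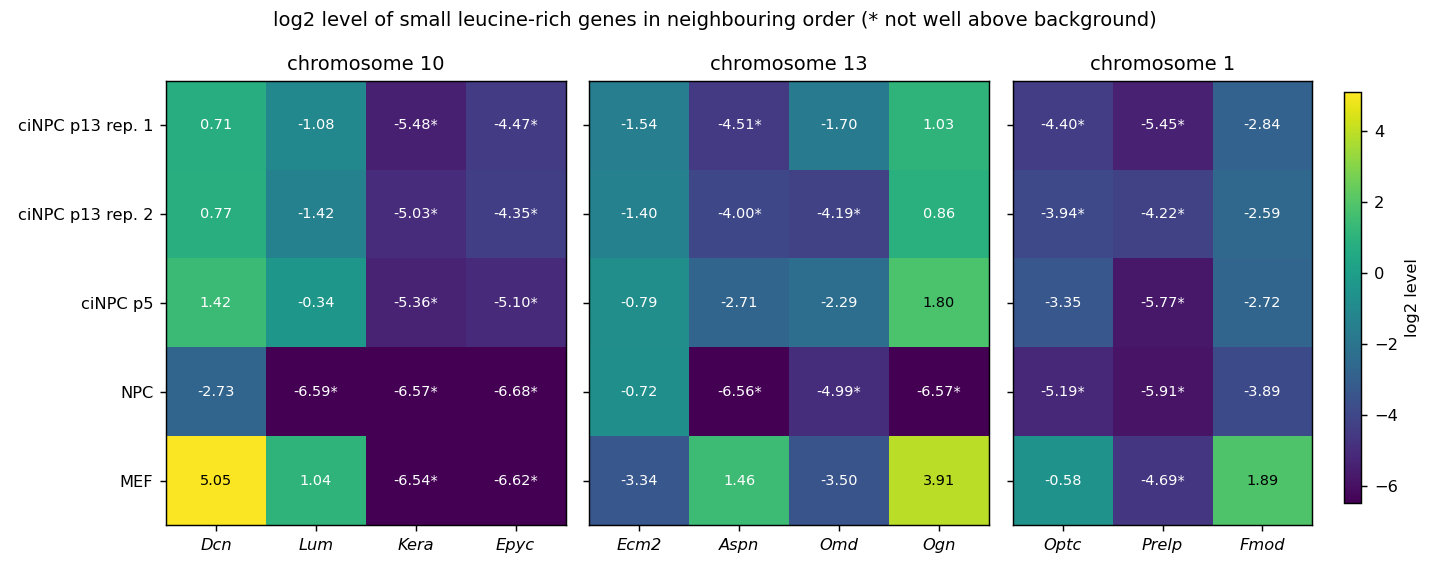
Log2 level of small leucine-rich genes (colour and printed number) on each array (rows), in the order in which the genes follow each other on chromosomes 10, 13 and 1. An asterisk marks values not well above background. On chromosome 13, Ecm2 is highest in NPC and ciNPC, Aspn and Ogn are highest in MEF, and Omd is highest in ciNPC p13 replicate 1.

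The other genes of the pathway were followed in 8 lists, with 1 probe a gene. Over all 16209 genes tested, 14.8% were called lower and 14.8% higher in ciNPC than in MEF, and 4.3% were called higher and 0.037% lower in ciNPC than in NPC. Among other small leucine-rich proteins, 8 were tested against MEF, with 3 called lower and 1 (Ecm2) higher, and a median of -0.67. Podocan (Podn), a non-canonical member that binds collagen, had levels of -1.77 and -1.43 in ciNPC p13, -1.48 in ciNPC p5, -4.94 (not well above background) in NPC and 3.37 in MEF. It was called lower than in MEF (-4.93, SE 0.30, adjusted p = 7.95e-05) and at least 6.93-fold higher than in NPC (adjusted p = 0.00138), and was the only gene of its list called against NPC. Its relative Podnl1 was called lower than in MEF (-2.57, SE 0.80, adjusted p = 0.0454). With quantile normalisation Podn was the one gene of the list still called lower, as Podnl1 (adjusted p = 0.0577) and Optc (adjusted p = 0.0535) were not.

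Collagens, the ligands of the family, had the same directions. Of 12 collagen genes tested, 11 were called lower in ciNPC than in MEF and none higher, with a median of -3.23 against -0.09 over all genes. The differences were -4.71 for Col3a1, -4.29 for Col6a2, -3.98 for Col5a1 and -3.75 for Col6a1. Col2a1, the cartilage collagen, was the gene not called (0.52, adjusted p = 0.114). Against NPC, 10 of the 12 were called higher and none lower, with a median of 4.81, and 5 were called without the intensity trend. For example, Col1a2 differed by 10.29 (SE 0.20, adjusted p = 2.09e-06), and Col2a1, under background in NPC, by at least 207-fold (adjusted p = 8.83e-06).

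Enzymes that build the sugar chains were called in both directions against MEF. In the list for the linker that joins chains to the core, B3galt6 was called higher (1.13, adjusted p = 0.00527) and B4galt7 lower (-1.15, adjusted p = 0.0112) of 6 tested, shares near those of all genes. With normexp both fell short of 2-fold, at 0.92 and -0.92, and B4galt7 also did with the percentile over detected probes (-0.99). In chondroitin and dermatan sulphate synthesis, 3 of 16 were called higher and 7 lower, with a median of -1.01, and 4 were lower with quantile normalisation and 3 without the intensity trend. The chondroitin sulphotransferases Chst3 (5.17, SE 0.23, adjusted p = 2.50e-05) and Chst7 (5.06, SE 0.17, adjusted p = 1.06e-05) were higher. Dse, the epimerase that turns chondroitin into dermatan sulphate, had levels of -3.48 and -2.80 (both not well above background) in ciNPC p13, -1.09 in ciNPC p5, -4.09 in NPC and 1.39 in MEF. It was called lower in ciNPC than in MEF (-3.85, SE 0.86, adjusted p = 0.0133), but not with quantile normalisation (adjusted p = 0.0648). Between passages, where 0.21% of all genes were called lower and 0.475% higher in p13, Dse was the only gene of the 8 lists called, at least 3.79-fold lower in p13 than in p5 (adjusted p = 0.00832). That passage call was lost with normexp, where the difference was -0.94, with quantile normalisation (adjusted p = 0.158) and without the intensity trend (adjusted p = 0.680). Chst15 was called lower in ciNPC than in MEF by -2.64 (adjusted p = 0.00831), while its other probe differed by -0.54. Its p13 values of -3.61 and -3.10 were not well above background and entered that fit as read.

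No gene of the linker or chondroitin and dermatan lists was called between ciNPC and NPC, where the medians were -0.11 and 0.22. In 2 alternatives, 1 gene of the chondroitin and dermatan list was called higher than in NPC. These were the fit without p13 replicate 1 and the fit with 4 groups. Over all probes they called 1189 and 1574 higher, against 972 in the fit as reported. In keratan sulphate synthesis, the chain of lumican and fibromodulin, 3 of 6 were called lower than in MEF and 1 higher, with a median of -1.80. B4galt1, a galactosyltransferase, was lower (-2.98, SE 0.20, adjusted p = 0.000116, with -1.58 at its other probe), as were B3gnt2 (-2.17) and the sulphotransferase Chst1 (-1.44). Chst2 was higher (1.08, adjusted p = 0.0181), a call lost with normexp (0.89), without p13 replicate 1 (0.90) and without the intensity trend (adjusted p = 0.115). Against NPC, Chst1 (2.28, adjusted p = 0.00119) and B4galt1 (1.65, adjusted p = 0.00641) were called higher of the 6, with a list median of 1.02, and neither call held without the trend.

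Ligands and receptors that these proteoglycans bind were called lower than in MEF for 7 of 16 genes and higher for 1, with a median of -1.03. The 3 TGF-beta ligands were among those lower. Tgfb1 had levels of -1.84 and -1.38 in ciNPC p13, -1.44 in ciNPC p5, -5.40 (not well above background) in NPC and 1.88 in MEF, a difference from MEF of -3.44 (SE 0.36, adjusted p = 0.000594). Tgfb3 differed by -2.46 (SE 0.17, adjusted p = 0.000129) and the endocytic receptor Lrp1 by -3.14 (SE 0.18, adjusted p = 5.63e-05), with -1.74 at its other probe. The receptor Erbb4 was called higher in ciNPC by at least 15.7-fold (adjusted p = 4.38e-05). Against NPC, 3 of the 16 were called higher and none lower, with a median of 0.28. These were Tgfb3 (4.03, adjusted p = 4.29e-05), Tgfb1 (at least 6.96-fold, adjusted p = 0.00162) and the hyaluronan receptor Cd44 (1.38, adjusted p = 0.0240), which was not called with quantile normalisation (adjusted p = 0.0747). Without p13 replicate 2, 6 of the list were called higher, but calls over all probes also rose, from 972 to 1586.

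Among proteases and matrix partners, 9 of 15 were called lower than in MEF and none higher, with a median of -2.22. They included elastin (Eln, -4.04, adjusted p = 0.000844), the decorin-binding factor Ccn4 (-3.45, adjusted p = 0.000116), the aggrecanase Adamts5 (-3.38, adjusted p = 0.00119, with -2.05 at its other probe) and the procollagen C-proteinase enhancer Pcolce (-3.20, adjusted p = 4.35e-05). Against NPC, 6 of the 15 were called higher and none lower, with a median of 2.30. Ccn4 was at least 197-fold higher (adjusted p = 7.11e-06), Thbs1 differed by 7.55 (adjusted p = 1.70e-05), Pcolce by 3.81 (adjusted p = 4.51e-05) and Mmp14 by 2.75 (adjusted p = 0.000376).

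Other proteoglycan cores were called in both directions. Against MEF, 5 of 18 were called higher and 7 lower, with a median of -0.68. The lectican brevican (Bcan) differed by 9.72 (SE 0.14, adjusted p = 6.31e-07, with 8.46 at its other probe), neurocan (Ncan) was at least 115-fold higher (adjusted p = 1.18e-05) and Cspg5, a brain core protein, differed by 5.94 (adjusted p = 6.29e-05). Perlecan (Hspg2), of basement membranes, was lower by -3.77 at its brighter probe (adjusted p = 5.10e-05) and by -1.89 at its other probe. Against NPC, 3 of the 18 were called higher and none lower, with a median of 0.23. These were the glypicans Gpc3 (3.70, adjusted p = 0.000617) and Gpc4 (2.57, adjusted p = 0.00873), and the syndecan Sdc2 (1.30, adjusted p = 0.0449). The calls of Gpc4 and Sdc2 were lost with quantile normalisation (adjusted p = 0.130 and 0.110), and none of the 3 held without the intensity trend.

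Between NPC and MEF, with 1 array each and no test, the 8 pathway lists were counted by differences of at least 4-fold with dim values at the floor, where 10.1% of all genes were lower and 8.01% higher in NPC. Collagens were lower in NPC for 12 of 12 genes, with Col1a2 at -13.30 and Col3a1 at -10.28. Proteases and matrix partners were lower for 10 of 15, among them Pcolce at -7.01, and none was higher. Other proteoglycan cores were lower for 6 of 18 and higher for 3, which were Bcan (10.14), Ncan (at least 175-fold) and Cspg5 (6.73). Of these, Bcan and Ncan encode core proteins of the matrix between brain cells. Chondroitin and dermatan sulphate enzymes were lower for 4 of 16 and higher for 2, Chst3 (5.91) and Chst7 (5.64), and keratan sulphate enzymes were lower for 4 of 6. Ligands and receptors were lower for 7 of 16 and higher for 1, Erbb4 (at least 25.2-fold). Of the other small leucine-rich proteins, 3 of 8 were lower (Podn at least 212-fold, Podnl1 at least 17.4-fold and Optc at least 13.7-fold) and Ecm2 was higher (2.61, but 1.68 with normexp). None of the 6 linker enzymes differed by 4-fold.

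**Figure D5:**
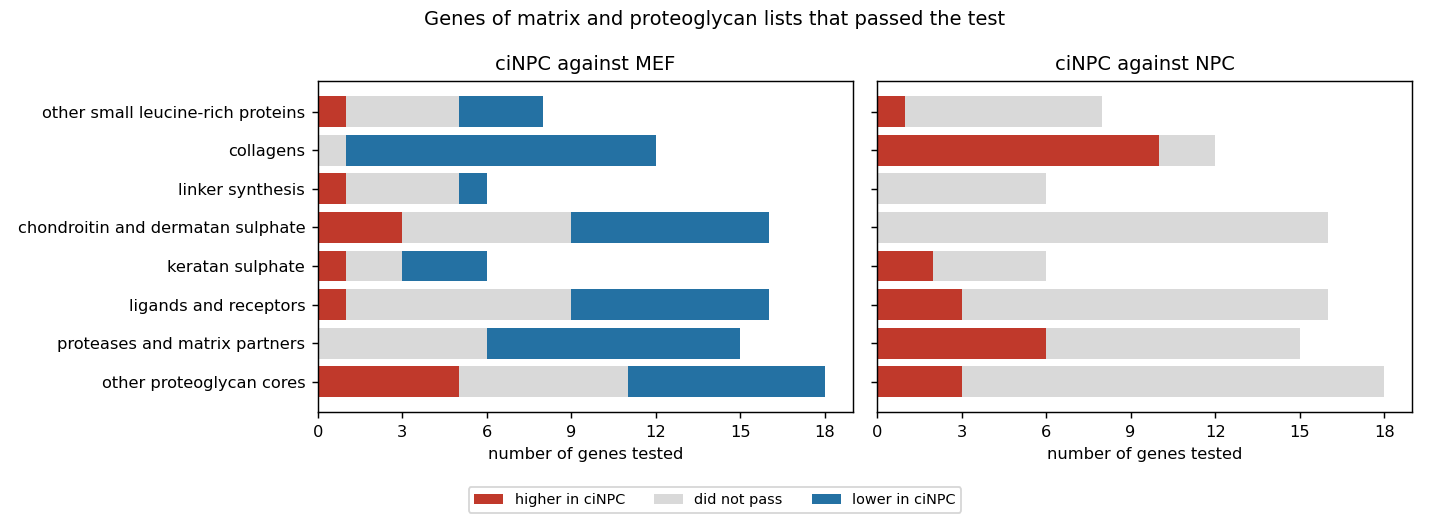
Number of genes of each list (rows) called higher (red) or lower (blue) in ciNPC, or not passing the test (grey), against MEF (left) and against NPC (right). Collagens have 11 of 12 genes lower than in MEF and 10 of 12 higher than in NPC. The chondroitin and dermatan sulphate list has genes called in both directions against MEF and none against NPC.

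Markers of 7 cell types were read beside these genes, and their part in the results was not tested. The fibroblast and the smooth muscle and pericyte lists were mostly called in the directions of the members. Of 14 fibroblast markers, 3 of which are also in the collagen list, 12 were called lower in ciNPC than in MEF and 12 higher than in NPC, with medians of -2.45 and 5.91. All 14 were well above background on the ciNPC and MEF arrays, and 9 were in NPC, where Col1a1, Pdgfrb, Twist1, Twist2 and Postn were not. Their summed linear level, in units of the 75th percentile, was 351 and 337 in p13, 455 in p5, 76.7 in NPC and 2677 in MEF. In NPC, 68.3 of this came from Fbln2, which differed between ciNPC and NPC by -0.12 (adjusted p = 0.809). The other 13 markers summed to 294 and 279 in p13, 380.1 in p5, 8.36 in NPC and 2243 in MEF. Of 12 neural progenitor markers, 11 were called higher than in MEF and none was called against NPC. The neural sum was 585 and 532 in p13, 461 in p5, 700.1 in NPC and 18.7 in MEF, and Sox2, Sox3, Pax6, Olig1, Olig2 and Hes5 were not well above background in MEF.

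Smooth muscle and pericyte markers, 7 in all, had 5 called lower than in MEF and 5 higher than in NPC. Their sum was 368 and 361 in p13, 415 in p5, 5.68 in NPC, of which Cspg4 gave 5.12, and 1499 in MEF, and Acta2, Cnn1, Myh11, Rgs5 and Des were not well above background in NPC. Cartilage, bone and tendon markers had 2 of 7 tested called lower than in MEF and 3 higher than in NPC. The sum of that list was 10.5 and 11 in p13, 14.3 in p5, 0.469 in NPC and 24.2 in MEF, with 4 of its 10 markers detected in each ciNPC array. Most of each ciNPC sum came from Col2a1, with log2 levels of 3.20 and 3.18 in p13 and 3.65 in p5. It stood at 2.82 in MEF and was not well above background in NPC. Without Scx, the other 9 markers summed to 9.89 and 10.2 in p13, 13.4 in p5, 0.358 in NPC and 11.6 in MEF. Macrophage markers had 2 of 6 tested lower than in MEF and 2 higher than in NPC. Their sums were 14.1 and 13.4 in p13, 11.7 in p5, 14.7 in NPC and 58.7 in MEF. Itgam gave 12.9 of the NPC sum. The other 6 markers summed to 2.39 and 2.61 in p13, 1.74 in p5, 1.81 in NPC and 3.78 in MEF, where Cd68 and Ptprc were not well above background. Neither of the 2 endothelial markers tested was called against MEF or NPC, with sums of 0.290 and 0.616 in p13, 0.253 in p5, 0.330 in NPC and 0.542 in MEF. Of 5 meningeal fibroblast markers tested, 1 was called lower and 1 higher than in MEF and 1 higher than in NPC. The sums of that list were 11 and 9.07 in p13, 8.36 in p5, 11.1 in NPC and 8.36 in MEF. Ptgds gave 9.46 of the NPC sum. The other 5 markers summed to 3.49 and 2.92 in p13, 3.33 in p5, 1.68 in NPC and 8.28 in MEF.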

How the data were processed

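Total RNA of 5 mouse samples was labelled with Cy3 and hybridised to arrays of 1 Agilent design with 60-base probes, annotated on mm9 per the file headers. The authors extracted spots with Agilent Feature Extraction 10.7.1.1, per the submitters' processing notes, and the deposited array files give each spot's processed intensity, background-subtracted but without scaling across arrays. In the deposited value table, log2 values had a median of 5.64 in every column. They correlated at 0.995 to 0.999 with log2 of the processed intensity and were read as quantile normalised. That step is not given in the sources used here.

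Here, spots carrying the software's non-uniformity or population-outlier flag were dropped, log2 processed intensity was centred on the 75th percentile of the array, and spots of a probe were averaged. A probe counted as well above background when all its spots were so marked. Probes so marked on all arrays of some group were fitted with limma 3.58.1 in R 4.3.3 (lmFit, eBayes with intensity trend), with Benjamini-Hochberg adjustment over 35587 probes. The 3 ciNPC arrays were 1 group against MEF and NPC (2 residual degrees of freedom), and p13 and p5 were separate groups for the passage comparison (1 residual degree of freedom). The lone MEF, NPC and p5 arrays were assumed to vary like the rest. Where a cell type was under background on all its arrays, folds are lower bounds against the floor of the array or, where higher, the probe's own signal. For Aspn and Omd against NPC, some ciNPC values were dim and kept as read, so those folds are not bounds.

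All 8 members are named. From each list at most 4 called genes a comparison with the greatest differences are named, and each list gene stands by its probe with the highest mean. The 3 genes nearest in profile to each member are named as well. Symbols came from the reference table (GRCm38.p6), matched by accession, symbol or synonym, and 25985 of 55681 probes had none. Members and lists were chosen with earlier results of these data known. Alternatives were normexp background correction (offset 50), quantile normalisation, a percentile over detected probes, the deposited values, other filters, flagged spots kept, 1 probe a gene, no intensity trend, 4 groups in the fit and each ciNPC array left out. Raising dim values to the floor was added after seeing the data. The number of arrays limits the precision.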

Additional observations from a re-analysis of the deposited data

How the results depend on the processing

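The 6 members called lower in ciNPC than in MEF had negative differences in every alternative that tested them, but 3 members were called when only probes above background on all 5 arrays were kept, since the others were then not tested. Leaving out each ciNPC array gave 0 to 1 members higher than in MEF, the 1 being Omd without p13 replicate 2. Over all probes these fits called 3884 to 5181 higher than in MEF, the most without p13 replicate 2. With 1 probe a gene, fewer features gave 2482 higher and 2481 lower. Against NPC the members called higher were 2 with probes above background on all arrays, since fewer were tested, and 1 with no intensity trend. Over all probes, higher and lower than in NPC were 538 and 41 with quantile normalisation, 537 and 36 with the deposited values, 575 and 12 on probes above background on all arrays, 335 and 12 without the trend and 1574 and 193 with 4 groups. The lower count was 59 with normexp and 34 with no filter. Leaving out single ciNPC arrays gave 1189 to 1586 higher and 78 to 282 lower. The highest of both came without p13 replicate 2.

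For p13 against p5, 3 probes were higher and 0 lower in limma with quantile normalisation and with the deposited values, 76 and 40 on probes above background on all arrays, 67 and 34 with 1 probe a gene, and 0 and 0 without the trend. In the fit as reported, 6651 probes had an unadjusted p under 0.05. Fmod turned to -0.59 with quantile normalisation and -0.60 with the deposited values. For NPC against MEF, 1261 probes were 4-fold higher and 1702 lower with normexp, and 4066 were lower with no floor. Where no cause is named, the cause was not tested. No paired analysis was possible because only p13 had more than 1 array. Signal over background limits Aspn, Omd and Prelp, and MEF, NPC and p5 had no replicate.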
